A study of Homo sapiens with 15 samples.

Results

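Cells of the line UKE-1 that had received TNF-α and then MCL were compared with untreated UKE-1 cells. The comparison used 6 of the 15 RNA-seq libraries of the series, 3 of each group, taken by the treatment in their labels. UKE-1 is an established human leukaemia line that arose from a myeloproliferative neoplasm and carries an activating JAK2 mutation. TNF-α is an inflammatory cytokine, and the cells met it before the drugs. MCL was taken as micheliolide, the plant sesquiterpene lactone named in the series title. The 6 libraries differ in both agents, so a gene's change here holds the effect of TNF-α and of MCL together. No group of the series received MCL without TNF-α. The 3 libraries with TNF-α alone are given beside them for the main genes. The remaining 6, with ruxolitinib or with MCL plus ruxolitinib after TNF-α, entered only the filter on low counts, the scaling and the estimate of the spread. RNA was taken 3 h after treatment. Doses, the length of the TNF-α exposure, whether the untreated cells received a vehicle, and whether replicates were grown separately remain unknown here. All p-values rest on how far these libraries scatter, and that scatter may be technical only.

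TNF-α binds its receptor and releases NF-kB transcription factors from their IkB inhibitors, and NF-kB then turns on chemokines, adhesion molecules, survival genes and its own inhibitors. Micheliolide belongs to the sesquiterpene lactones, compounds that can react with cysteines of proteins. Cysteine-reactive compounds are known to modify KEAP1, the sensor that holds the factor NRF2 in check, and they can also set off the heat shock response and the ATF4 pathway, which answers to amino acid shortage, oxidants and misfolded protein.

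Library totals in the 6 libraries ranged from 15476399 to 18035604 counts. Of 58735 genes in the table, 16146 passed the filter on low counts and were tested. Lineage genes of a blood precursor were present in untreated cells, with GATA2 at 486, 482 and 486 CPM (counts scaled to library size) and GFI1B at 316, 304 and 305 CPM, while the red-cell genes HBB, HBG2, GYPB and AHSP had no count in any of the 9 libraries. Reads of genes that overlap on the genome cannot be separated, because no source used here says whether strand was used in counting, and 39 of the 153 genes chosen by the rule for named genes overlap another tested gene.

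With TNF-α plus MCL, 2771 genes were higher than in untreated cells, 17.2% of those tested, and 2731 were lower, 16.9% (edgeR quasi-likelihood test, Benjamini-Hochberg adjusted p under 0.05). Larger changes leaned upward: 435 genes (2.69%) rose 2-fold or more and 332 (2.06%) fell by as much, and 4-fold changes numbered 134 up and 28 down. The median log2 fold change over all tested genes was 0.00. TNF-α alone gave 2275 higher (14.1%) and 2017 lower (12.5%) genes against the same untreated libraries, and 595 (3.69%) against 73 (0.452%) at 2-fold. Since both comparisons share the untreated libraries, their values are set side by side and no overlap is drawn from them. Scaling by library totals instead of TMM left the split with MCL at 50.3% of calls higher, against 50.4%, but moved that of TNF-α alone from 53.01% to 42.4%.

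**Figure D1:**
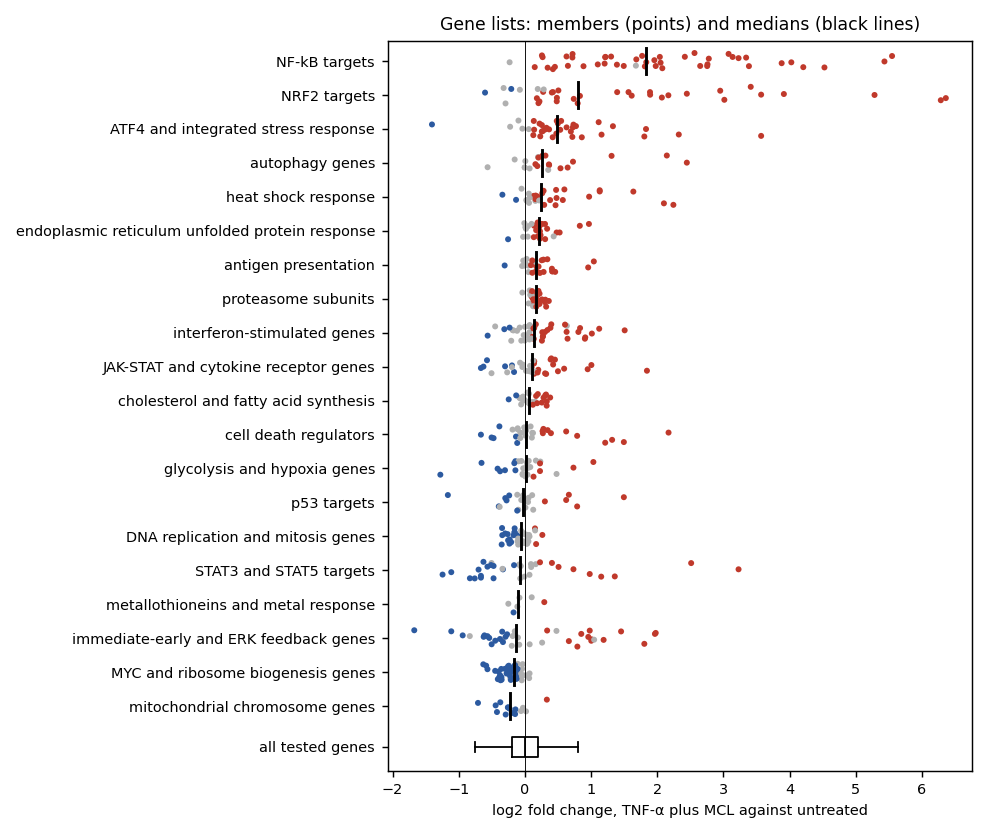
Log2 fold change with TNF-α plus MCL against untreated for each tested member of 20 gene lists. Red points passed the test and were higher, blue points passed and were lower, grey points did not pass, and black lines are list medians. The box at the bottom shows all tested genes with whiskers at the 5th and the 95th percentile. NF-kB targets (median 1.82) and NRF2 targets (median 0.80) sit furthest to the right.

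The genes furthest above untreated differed in their level with TNF-α alone. The chemokine genes CXCL10 and CXCL11, the survival gene BIRC3 and the NF-kB inhibitor TNFAIP3 were as high or higher with TNF-α alone. The heme-degrading enzyme HMOX1, the stress gene OSGIN1 and TRIM16L, a relative of the tripartite-motif gene TRIM16, were near the untreated level with TNF-α alone. By the naming rule, the 12 protein-coding genes with the highest fold were HMOX1, CXCL10, OSGIN1, CXCL11, MARCKS, BIRC3, TNFSF18, TNFAIP3, TRIM16L, IL4I1, TRAF1 and SLC16A9, with log2 fold changes from 3.67 ± 0.21 to 6.36 ± 0.14.

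NF-kB targets were the list with the highest median. Of 54 listed genes, 46 passed the filter on low counts, and 44 of these 46 were higher with TNF-α plus MCL than in untreated cells, none was lower and 2 did not pass, against 17.2% of all tested genes called higher. Their median log2 fold change was 1.82, and 33 rose at least 2-fold. Low untreated counts let 4 of the 46 (CCL4, CD80, IER3 and VCAM1) through the filter only because of other groups. Without them 41 of 42 were higher. With TNF-α alone 45 of the 46 rose (against 14.1% of all tested genes), with a median of 2.38. Against TNF-α alone the libraries with MCL were lower for 37 and higher for 4. Of all tested genes 15.1% were lower and 10.9% higher in that comparison, a split of 41.8% higher among calls that became 53.7% with library totals.

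To describe how far each gene stood from the untreated level, the rise with TNF-α plus MCL was divided by the rise with TNF-α alone, both in CPM, so that 0% is the untreated level and 100% the level with TNF-α alone. Over the 45 NF-kB targets that rose with TNF-α, this share had a median of 62.2% and ran from 13.6% for IL1B to 267.5% for CXCL3. It was above 100% for 7 genes, from 50% to 100% for 19 and from 0% to 50% for 19, and no gene was below 0%. On the log2 scale the median was 78.2%.

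Regulators of NF-kB itself were above untreated and mostly somewhat below their TNF-α levels. TNFAIP3, which encodes the ubiquitin-editing inhibitor A20, was at 8.73, 9.78 and 10 CPM in the 3 untreated libraries, 189.9, 189.7 and 182 CPM with TNF-α and 153, 157 and 155 CPM with TNF-α plus MCL. All 3 MCL libraries lay far above the untreated ones and below every TNF-α library. The log2 fold change against untreated was 4.03 ± 0.06 (SE; adjusted p = 3.10e-55), and -0.27 ± 0.04 against TNF-α. NFKBIA, the gene of the inhibitor IkBα, went from 96.8, 90.7 and 94.3 CPM untreated to 388, 374 and 395 CPM (2.04 ± 0.04 on the log2 scale), with 475, 485 and 495 CPM under TNF-α alone. The subunit gene NFKB2 stood at 51.3, 50.8 and 54.9 CPM untreated, 449.8, 441 and 467 CPM with TNF-α and 358, 347 and 358 CPM with both agents. RELB, another subunit gene, stood at 18.1, 18.9 and 18.2 CPM untreated, 180.2, 174 and 186 CPM with TNF-α and 165, 157 and 164 CPM with both agents. No untreated library overlapped an MCL library for any of these. The shares of the TNF-α rise were 82.0 ± 1.33% for TNFAIP3, 74.6 ± 1.98% for NFKBIA, 75.4 ± 1.68% for NFKB2 and 89.0 ± 2.50% for RELB (± SE). The subunit genes NFKB1, REL and RELA rose less, with log2 fold changes of 1.30 ± 0.04, 0.65 ± 0.09 and 0.27 ± 0.05. Other regulators held less of the TNF-α rise, the IkB-family genes NFKBIZ 38.4 ± 6.80% and BCL3 61.4 ± 1.802%, the A20 partner TNIP1 56.8 ± 1.34% and NFKB1 62.2 ± 1.75%.

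Survival genes and adaptors split. BIRC3, which encodes the ubiquitin ligase cIAP2, was at 7.48, 6.06 and 7.86 CPM untreated, 158, 159.6 and 154 CPM with TNF-α and 128, 135 and 132 CPM with TNF-α plus MCL, a log2 fold change of 4.21 ± 0.06. TRAF1, an adaptor of TNF receptors, was at 3.74, 2.94 and 3.10 CPM, 103, 101 and 101 CPM and 49.1, 45.3 and 49.3 CPM in the same order. Both genes were clear of the untreated range, but TRAF1 held 45.4 ± 1.38% of its TNF-α rise and BIRC3 82.9 ± 1.72%. BCL2A1, a BCL2 relative that protects from cell death, was at 3.49, 3.06 and 2.86 CPM untreated, 13.4, 14.2 and 17.2 CPM with TNF-α and 7.49, 7.44 and 6.86 CPM with both agents, 35.01 ± 3.98% of its rise.

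Adhesion molecules and cytokine ligands were above untreated and below their TNF-α levels. ICAM1, a ligand of leukocyte integrins, was at 19.6, 17.6 and 18.2 CPM untreated, 363, 366 and 391 CPM with TNF-α and 170.1, 174 and 174 CPM with TNF-α plus MCL. The 3 groups did not overlap, and the MCL libraries lay between the others at 43.5 ± 1.162% of the rise (3.23 ± 0.05 against untreated and -1.11 ± 0.04 against TNF-α on the log2 scale). VCAM1, another integrin ligand, had 2 counts in all untreated libraries, 106 with TNF-α plus MCL and 700 with TNF-α alone. The ratio of MCL to untreated was 55.6, with a 95% counting interval from 15.02 to 465.1. The lymphotoxin gene LTB rose from 30.8, 30.0 and 29.7 CPM to 68.8, 63.6 and 61.5 CPM, TNF itself from 19.9, 17.6 and 19.8 CPM to 31.8, 30.9 and 31.3 CPM, and the cytokine subunit EBI3 from 6.30, 5.17 and 5.54 CPM to 57.4, 64.9 and 55.2 CPM. These were 22.02 ± 1.61%, 35.1 ± 1.84% and 34.9 ± 1.94% of their rises with TNF-α. IL1B, the gene of the fever cytokine interleukin-1β, was close to the untreated level at 28.1, 30.1 and 29.3 CPM against 24.7, 24.9 and 23.6 CPM, although its libraries did not overlap, with 61.9, 57.8 and 58.8 CPM under TNF-α alone.

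Chemokine genes covered the whole range. CXCL10, which draws T cells through CXCR3, was at 3.99, 4.44 and 5.30 CPM untreated, 222, 230.2 and 232 CPM with TNF-α and 198, 206 and 191 CPM with TNF-α plus MCL (5.43 ± 0.07 on the log2 scale against untreated). The CXCR3 ligand CXCL11 was at 1.247, 1.28 and 1.61 CPM untreated, 47.8, 49.3 and 48.8 CPM with TNF-α and 31.7, 31.5 and 32.6 CPM with both agents. Both were far above untreated in every library, at 86.8 ± 2.22% and 64.7 ± 0.930% of the TNF-α rise. The neutrophil-attracting chemokines went past the TNF-α level instead. CXCL8 was at 10.9, 12.6 and 16.0 CPM untreated, 62.0, 68.6 and 64.0 CPM with TNF-α and 135, 136 and 130.3 CPM with TNF-α plus MCL. CXCL3 was at 16.6, 13.3 and 14.9 CPM untreated, 55.4, 57.5 and 56.3 CPM with TNF-α and 128, 121 and 129 CPM with both agents, and CXCL2 at 18.1, 15.9 and 16.7 CPM untreated, 39.6, 41.0 and 40.1 CPM with TNF-α and 61.4, 59.7 and 59.2 CPM with both agents. Every MCL library exceeded every TNF-α library for these genes, by 1.04 ± 0.05, 1.158 ± 0.05 and 0.58 ± 0.06 on the log2 scale. CCL5, a chemokine of T cells and monocytes, was at 46.0, 39.3 and 40.2 CPM untreated and 57.7, 56.3 and 57.4 CPM with both agents. CCL2 was not tested, with 0, 1 and 0 counts untreated, 8, 19 and 9 with TNF-α, and 2, 2 and 4 with TNF-α plus MCL.

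**Figure D2:**
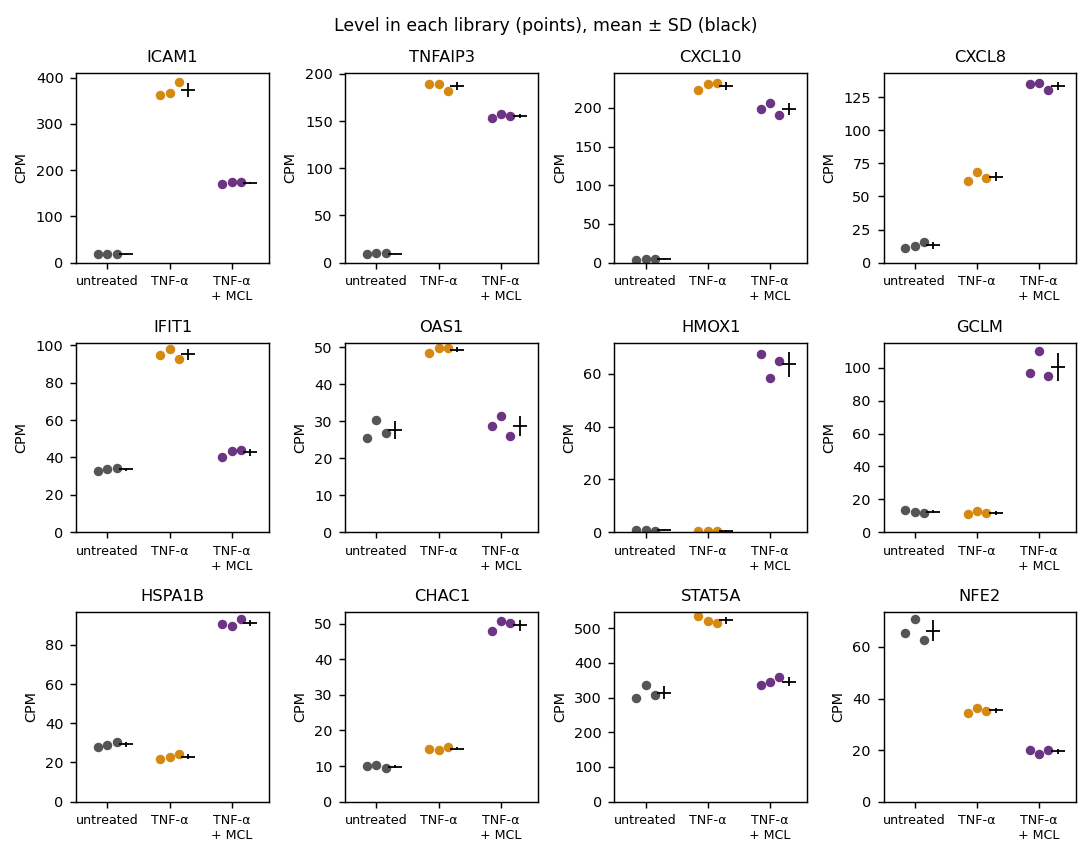
Level of 12 genes in CPM in each library (points), untreated, with TNF-α and with TNF-α plus MCL. Black crosses are the mean ± SD of 3 libraries, and every axis starts at 0. CXCL8, HMOX1, GCLM, HSPA1B and CHAC1 are highest with MCL, OAS1 and STAT5A return to near the untreated level, and NFE2 is lowest with MCL.

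The promoters of TNFAIP3, CXCL10 and CXCL3 are printed because each holds the κB consensus, the pattern of letters that NF-kB binds, while the genes hold different shares of the TNF-α rise. They are the 250 bases before the annotated start, from RefSeq GRCh38.p14, 5′ to 3′ along the gene, with matches on either strand in capitals.
TNFAIP3: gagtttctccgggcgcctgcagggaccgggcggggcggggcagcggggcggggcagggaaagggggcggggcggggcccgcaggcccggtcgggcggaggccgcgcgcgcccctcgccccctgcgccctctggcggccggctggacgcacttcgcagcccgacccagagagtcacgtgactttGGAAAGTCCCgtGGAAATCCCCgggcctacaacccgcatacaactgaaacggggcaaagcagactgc
CXCL10: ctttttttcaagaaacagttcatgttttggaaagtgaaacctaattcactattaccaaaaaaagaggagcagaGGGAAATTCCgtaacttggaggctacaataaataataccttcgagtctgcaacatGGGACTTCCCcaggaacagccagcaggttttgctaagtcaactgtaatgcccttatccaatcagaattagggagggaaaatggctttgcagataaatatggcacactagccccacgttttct
CXCL3: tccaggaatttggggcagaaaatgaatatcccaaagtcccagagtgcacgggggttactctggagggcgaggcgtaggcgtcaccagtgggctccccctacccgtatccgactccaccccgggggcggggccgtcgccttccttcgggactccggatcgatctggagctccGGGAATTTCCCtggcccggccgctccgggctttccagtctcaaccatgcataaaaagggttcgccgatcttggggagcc
The stretch of TNFAIP3 is chr6:137867009-137867258 on the plus strand, that of CXCL10 chr4:76023498-76023747 and that of CXCL3 chr4:74038690-74038939, both on the minus strand. TNFAIP3 has matches starting 67 and 55 bases before the start, CXCL10 at 177 and 122, and CXCL3 overlapping matches at 79 and 78. RefSeq promoters were found for 39 of the 46 tested NF-kB targets, and 19 of them (48.7%) hold the κB consensus in the 300-base window from 250 before to 50 after the start. The share was 6.77% of the promoters found for tested genes and 5.72% of all 27305 promoters. A match describes the letters and does not show that the site is used.

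Interferon-stimulated genes, which TNF-α also raised, were nearer to the untreated than to the TNF-α level with MCL for most members. All 46 listed genes were tested, and with TNF-α plus MCL 23 (against 17.2% of all tested genes) were higher than untreated, 3 were lower (against 16.9%) and 20 did not pass. The median log2 fold change was 0.13, and 3 genes rose at least 2-fold. With TNF-α alone 39 of the 46 rose (against 14.1% of all tested genes) and 1 fell (against 12.5%), with a median of 0.68. Against TNF-α alone 36 were lower with MCL (against 15.1% of all tested genes) and none was higher (against 10.9%). Over the 39 genes that rose with TNF-α, the share of the rise had a median of 27.1%, from -43.7% for MX2 to 90.4% for IRF9. It was from 50% to 100% for 5 genes, from 0% to 50% for 27 and below 0% for 7, and on the log2 scale the median was 34.1%.

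Antiviral effector genes differed in how far they stood above untreated. IFIT1, which binds viral RNA, was at 32.9, 33.8 and 34.4 CPM untreated, 94.9, 98.1 and 92.5 CPM with TNF-α and 40.5, 43.6 and 43.9 CPM with TNF-α plus MCL. The MCL libraries sat just above the untreated ones and far below those with TNF-α (log2 fold change 0.34 ± 0.07 against untreated and -1.158 ± 0.06 against TNF-α). Its neighbour IFIT3 did not pass, at 32.3, 33.8 and 32.9 CPM untreated and 34.7, 39.8 and 34.3 CPM with both agents (adjusted p = 0.132). Both genes overlap LIPA. The RNA-degradation activators OAS1 and OAS2 had log2 fold changes of 0.06 ± 0.08 (adjusted p = 0.608) and 0.00 ± 0.04 (adjusted p = 0.991), with 95% intervals from -0.10 to 0.21 and from -0.09 to 0.09. Their relative OAS3 stayed above untreated, with a log2 fold change of 0.30 ± 0.03 and 27.6 ± 2.69% of its TNF-α rise. ISG15, a ubiquitin-like protein, had 104, 98.1 and 98.5 CPM untreated, 137, 133 and 144 CPM with TNF-α and 111, 103 and 99.5 CPM with both agents, and the MCL libraries overlapped the untreated ones. The antiviral genes RSAD2 and MX2 and the DNA sensor IFI16 fell below untreated, by log2 fold changes of -0.23 ± 0.07, -0.56 ± 0.12 and -0.31 ± 0.04.

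The RNA sensor genes DDX58, which encodes RIG-I, and IFIH1 rose from 21.4, 20.3 and 21.8 to 45.7, 45.5 and 46.8 CPM and from 35.7, 35.8 and 40.1 to 66.5, 67.7 and 64.6 CPM, 42.4 ± 1.89% and 48.0 ± 3.10% of their TNF-α rises. GBP5, a guanylate-binding protein, had the highest fold of the list at 1.51 ± 0.12, with 4.05, 4.67 and 6.01 CPM untreated, 38.7, 41.5 and 38.4 CPM with TNF-α and 12.2, 14.7 and 15.1 CPM with both agents. IRF9, the DNA-binding part of the interferon response complex, rose by 0.91 ± 0.13 on the log2 scale, and its partner STAT2 by 0.40 ± 0.05. IRF1, counted here among the NF-kB targets, was at 9.73, 6.83 and 9.47 CPM untreated, 28.3, 32.3 and 29.1 CPM with TNF-α and 31.2, 28.5 and 31.3 CPM with TNF-α plus MCL. Its level with MCL was 102 ± 7.18% of the TNF-α rise, and the difference from TNF-α alone did not pass (log2 fold change 0.02 ± 0.09, 95% interval from -0.16 to 0.20; adjusted p = 0.892).

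**Figure D3:**
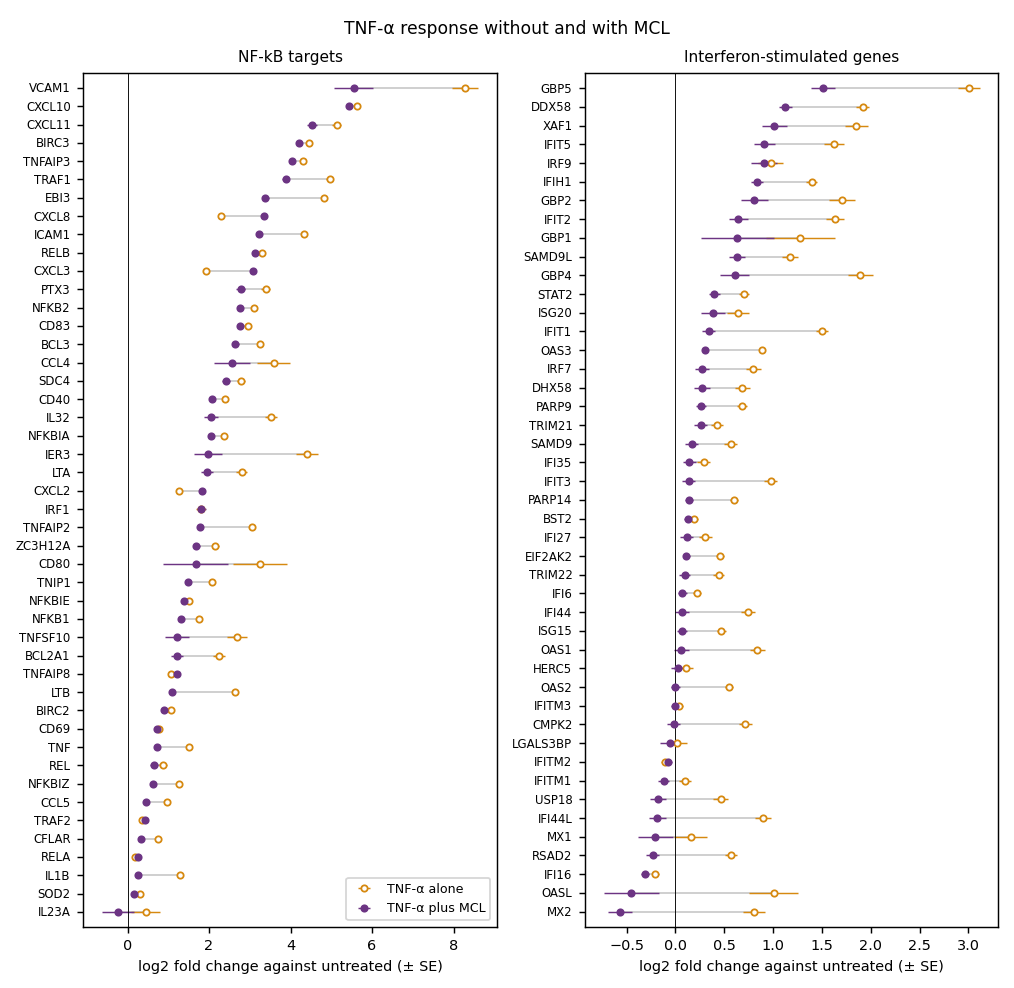
Log2 fold change against untreated (± SE) for tested NF-kB targets (left) and interferon-stimulated genes (right), all but 1 of the latter drawn, with TNF-α alone (open orange) and with TNF-α plus MCL (filled purple). Both sets of points use the same untreated libraries. Purple points lie right of orange for CXCL8, CXCL3 and CXCL2, and many interferon-stimulated genes lie near 0 with MCL.

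The promoters of IFIT1 and ISG15 are shown with a pair of GAAA units, any 2 letters apart, in capitals, a pattern of sites bound by interferon regulatory factors (RefSeq GRCh38.p14, 250 bases before the start, 5′ to 3′).
IFIT1: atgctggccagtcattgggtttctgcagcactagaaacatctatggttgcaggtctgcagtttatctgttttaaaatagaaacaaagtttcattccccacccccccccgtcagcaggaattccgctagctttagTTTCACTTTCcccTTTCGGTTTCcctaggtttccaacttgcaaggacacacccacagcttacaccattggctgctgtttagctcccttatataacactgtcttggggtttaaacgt
ISG15: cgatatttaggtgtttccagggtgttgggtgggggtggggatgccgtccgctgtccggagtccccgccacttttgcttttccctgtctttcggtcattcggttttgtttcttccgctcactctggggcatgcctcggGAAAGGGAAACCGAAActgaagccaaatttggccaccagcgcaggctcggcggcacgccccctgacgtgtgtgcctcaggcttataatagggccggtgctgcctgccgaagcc
The IFIT1 stretch is chr10:89392373-89392622 and the ISG15 stretch chr1:1013247-1013496, both on the plus strand, with matches starting 116 and 103 bases before the start of IFIT1 and overlapping matches 113 and 107 bases before that of ISG15. Promoters were found for 33 of the 46 listed genes, and 23 (69.7%) hold the pattern on either strand in the 300-base window, against 3.1% of promoters of tested genes and 3.65% of all. The κB consensus was in 6 of the 33 (18.2%).

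Antigen presentation genes rose modestly in both treated groups. Of 26 tested, 17 were higher with TNF-α plus MCL than untreated (against 17.2% of all tested genes), 1 was lower (against 16.9%) and 8 did not pass. The median log2 fold change was 0.17. With TNF-α alone 19 rose (against 14.1% of all tested genes), with a median of 0.27. The median share of the rise over these 19 was 72.9% (78.2% on the log2 scale). TAP1, a peptide transporter subunit, was at 27.8, 29.4 and 25.3 CPM untreated, 72.8, 72.1 and 71.3 CPM with TNF-α and 56.9, 58.2 and 54.7 CPM with both agents. TAP1 overlaps the tested genes PSMB9 and PSMB8-AS1. The class I genes HLA-B and HLA-E rose by 0.46 ± 0.03 and 0.41 ± 0.03, and beta-2-microglobulin, B2M, by 0.28 ± 0.03. CIITA, the master regulator of class II genes, kept 17.6 ± 1.85% of its rise, and NLRC5, the class I regulator, fell by 0.31 on the log2 scale. Highly similar HLA genes can share reads, so their values are uncertain.

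**Figure D4:**
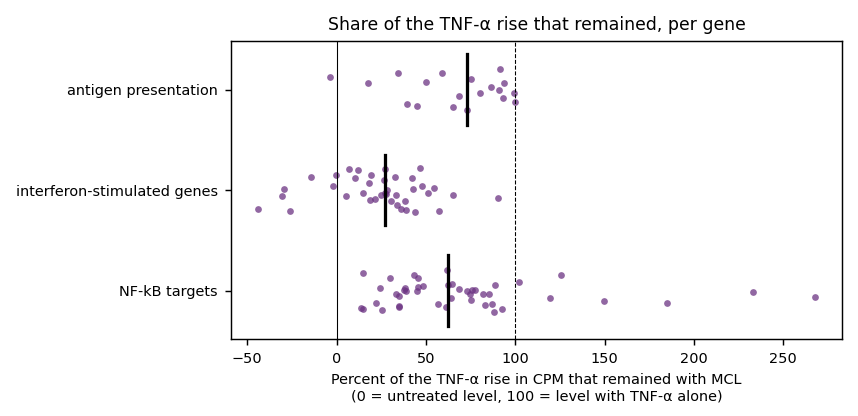
Share of the TNF-α rise present with TNF-α plus MCL for each gene that rose with TNF-α, in percent of the CPM difference. Points are genes, black lines are medians (62.2%, 27.1% and 72.9% from bottom to top), and the vertical lines mark the untreated level (0%) and the level with TNF-α alone (100%).

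The stress genes added with MCL were led by targets of NRF2. Of 41 listed genes, 35 were tested, and 28 were higher than untreated, 2 were lower (ABCC1 and ABCC4, both drug exporters) and 5 did not pass. Of all tested genes, 17.2% were higher and 16.9% lower in this comparison. The median log2 fold change was 0.80, and 16 rose at least 2-fold, 11 of them at least 4-fold. TNF-α alone gave 8 higher (against 14.1% of all tested genes) and 6 lower (against 12.5%), with a median of 0.06. With MCL, 28 of the 35 were higher than with TNF-α alone, against 10.9% of all tested genes. Low untreated counts let GPX2 and NMRAL2P through the filter, and without them 27 of 33 were higher.

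HMOX1, which breaks heme down to biliverdin, iron and carbon monoxide, had the highest fold among protein-coding genes that met the naming rule. It was at 0.935, 0.944 and 0.417 CPM untreated, 0.526, 0.300 and 0.621 CPM with TNF-α and 67.6, 58.4 and 64.9 CPM with TNF-α plus MCL, 39 counts in all untreated libraries against 3092. The MCL libraries did not approach either other group, and the log2 fold change was 6.36 ± 0.14 (adjusted p = 3.92e-24). The ratio of MCL to untreated counts was 83.2, with a 95% counting interval from 60.7 to 117.2, wider than the standard error implies. Among other members, FTH1 and FTL, the ferritin chains, rose by 1.57 ± 0.05 and 0.80 ± 0.03, and the heme transporter SLC48A1 by 1.39 ± 0.04. The pseudogene NMRAL2P, named after its values were seen, was at 14.4 CPM with both agents and 0.171 CPM untreated.

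Several members supply glutathione. SLC7A11, the cystine importer, was at 8.29, 8.94 and 8.52 CPM untreated, 11.4, 12.4 and 12.7 CPM with TNF-α and 101, 105 and 101 CPM with TNF-α plus MCL (3.57 ± 0.06 on the log2 scale). GCLM, the regulatory subunit of the rate-limiting enzyme of glutathione synthesis, was at 13.3, 12.4 and 11.6 CPM untreated, 10.8, 12.8 and 11.6 CPM with TNF-α and 96.7, 110.3 and 94.8 CPM with both agents (3.01 ± 0.07). In both, all MCL libraries lay well above all others. The catalytic subunit GCLC rose less, by 0.48 ± 0.05, and glutathione reductase, GSR, by 0.83 ± 0.04.

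Other members are thioredoxin genes and detoxifying enzymes. TXNRD1, thioredoxin reductase, was at 236, 218 and 228 CPM untreated, 199.8, 207 and 207 CPM with TNF-α and 699.8, 698 and 689 CPM with both agents (1.61 ± 0.03). SRXN1, which repairs oxidised peroxiredoxins, went from 0.873, 1.06 and 1.07 to 8.32, 6.99 and 8.10 CPM, with 1.249, 0.240 and 0.807 CPM under TNF-α alone. NQO1, a quinone reductase, went from 2.37, 2.22 and 1.79 to 23.1, 23.5 and 21.5 CPM, with 1.77, 2.34 and 1.74 CPM under TNF-α alone. OSGIN1, an oxidative-stress growth inhibitor, was at 4.49, 3.72 and 4.05 CPM untreated, 4.60, 5.11 and 4.84 CPM with TNF-α and 157, 158 and 162 CPM with both agents (5.28 ± 0.08). None of these 4 genes had an MCL library inside the untreated range. Among NADPH-making enzymes, PGD rose by 0.51 ± 0.04 and malic enzyme ME1 by 1.89 ± 0.06. MAFG, a small MAF partner of NRF2, rose by 1.89 ± 0.04.

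SQSTM1, the autophagy receptor p62 that also binds KEAP1, was raised by both agents. It was at 185, 173 and 183 CPM untreated, 432, 447 and 458 CPM with TNF-α and 973, 985 and 988 CPM with TNF-α plus MCL. The groups did not overlap, and the steps on the log2 scale were 1.31 ± 0.03 with TNF-α and a further 1.14 ± 0.03 with MCL. SQSTM1, OSGIN1, TXNRD1 and SLC7A11 each overlap another tested gene.

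The promoters of GCLM and TXNRD1 are printed with the letters TGACNNNGC in capitals, the core of the antioxidant response element bound by NRF2 with small MAF proteins (RefSeq GRCh38.p14, 250 bases before the start, 5′ to 3′).
GCLM: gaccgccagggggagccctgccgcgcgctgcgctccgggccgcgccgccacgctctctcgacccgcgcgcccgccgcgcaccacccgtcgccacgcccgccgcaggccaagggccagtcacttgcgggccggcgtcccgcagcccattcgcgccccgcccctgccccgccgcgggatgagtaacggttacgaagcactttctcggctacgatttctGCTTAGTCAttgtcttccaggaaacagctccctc
TXNRD1: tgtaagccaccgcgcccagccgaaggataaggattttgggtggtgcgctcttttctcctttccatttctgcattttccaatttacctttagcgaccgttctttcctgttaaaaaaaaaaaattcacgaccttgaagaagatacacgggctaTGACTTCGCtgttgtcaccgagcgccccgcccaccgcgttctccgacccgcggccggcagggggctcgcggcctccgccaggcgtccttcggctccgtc
GCLM's stretch is chr1:93909431-93909680 on the minus strand with a match starting 34 bases before the start, and TXNRD1's is chr12:104215529-104215778 on the plus strand with a match 99 bases before it. Promoters were found for 25 of the 35 tested NRF2 targets, and 7 (28.0%) hold these letters on either strand in the 300-base window. The share was 15.4% of promoters of tested genes and 13.6% of all promoters, so this short pattern is common. None of the 25 holds the κB consensus.

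**Figure D5:**
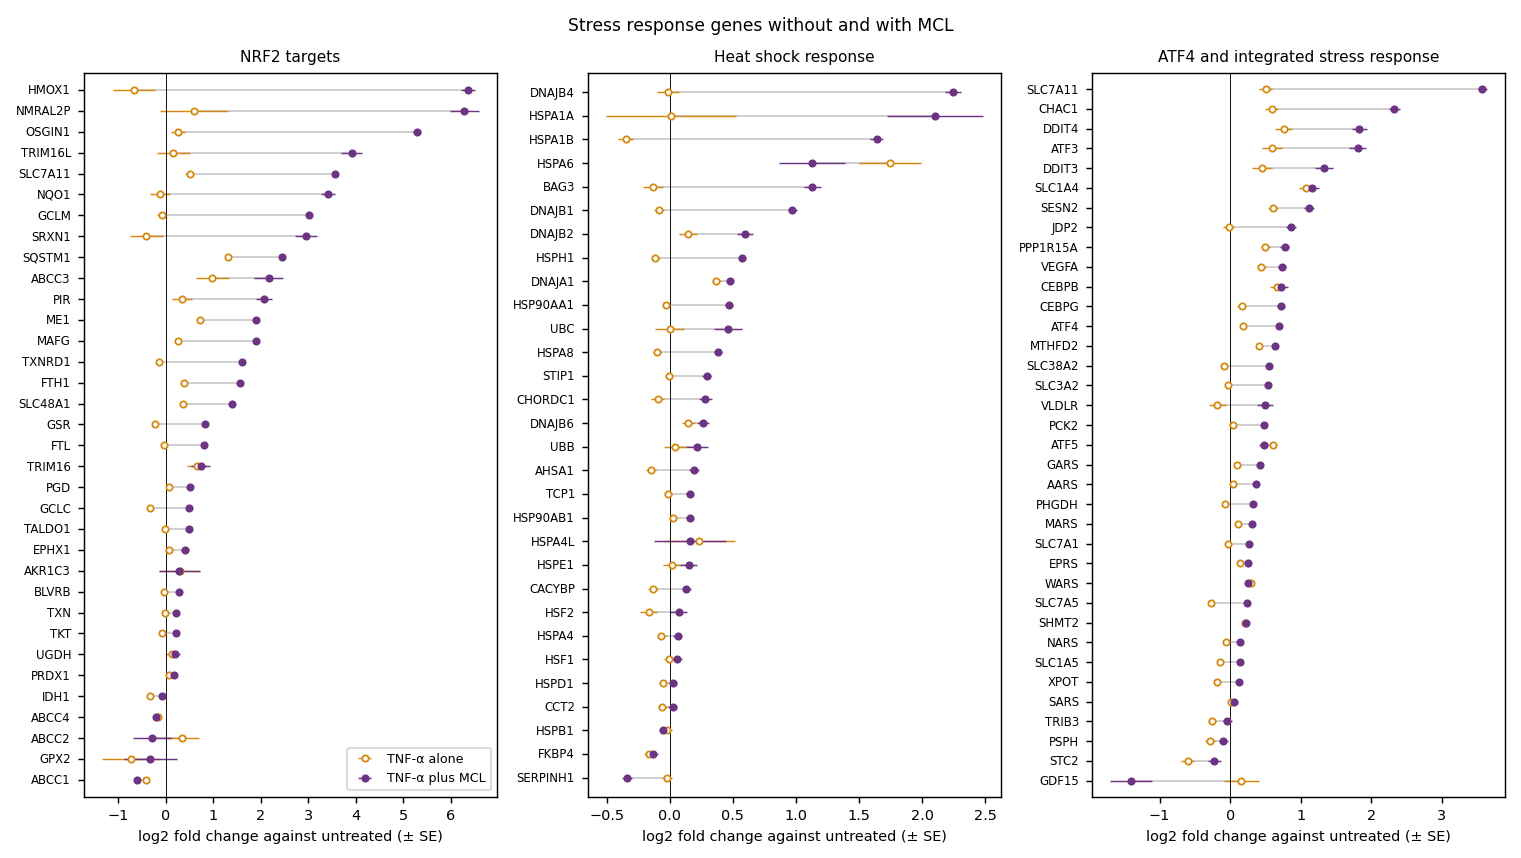
Log2 fold change against untreated (± SE) for tested NRF2 targets (all but 1 drawn), heat shock genes and ATF4 genes, with TNF-α alone (open orange) and with TNF-α plus MCL (filled purple). Both sets use the same untreated libraries, and the horizontal axes differ between panels. HMOX1, OSGIN1, DNAJB4 and HSPA1B lie near or below 0 with TNF-α alone and far to the right with MCL.

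The heat shock response rose over fewer members. Of 30 tested genes 19 were higher (against 17.2% of all tested genes), 2 were lower (against 16.9%) and 9 did not pass. The median log2 fold change was 0.24, and TNF-α alone gave 3 higher (against 14.1% of all tested genes) and 6 lower (against 12.5%). The inducible HSP70 gene HSPA1B was at 28.1, 29.1 and 30.6 CPM untreated, 21.8, 22.8 and 24.2 CPM with TNF-α and 90.5, 89.8 and 93.1 CPM with TNF-α plus MCL. Its MCL libraries lay above all others (1.64 ± 0.05 against untreated), and the log2 fold change with TNF-α alone was -0.35 ± 0.06. HSPA1A, a near-identical copy, cannot be separated from it with certainty and had 2.10 ± 0.38. The co-chaperone gene DNAJB4 rose from 14.4, 13.2 and 15.4 to 71.7, 69.5 and 62.2 CPM, with 13.7, 13.3 and 15.4 CPM under TNF-α alone. DNAJB1, of the same family, rose from 114, 115 and 111 to 216, 228 and 222 CPM, with 109, 107 and 104 CPM under TNF-α alone. BAG3, which hands HSP70 clients to autophagy, rose by 1.13 ± 0.07, HSPH1 by 0.57 ± 0.03 and the cytosolic HSP90 gene HSP90AA1 by 0.47 ± 0.03. The constitutive chaperone HSPA8 went from 2394, 2474 and 2481 to 3129, 3275 and 3159.8 CPM (log2 fold change with TNF-α alone -0.10 ± 0.03), and HSF1, the factor that drives the response, did not pass (0.06 ± 0.04; adjusted p = 0.298).

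The promoter of HSPA1B, the heat shock gene given per library above, is printed with GAANNTTC in capitals, a pair of inverted GAA units as in heat shock elements (RefSeq GRCh38.p14, 250 bases before the start, 5′ to 3′).
HSPA1B: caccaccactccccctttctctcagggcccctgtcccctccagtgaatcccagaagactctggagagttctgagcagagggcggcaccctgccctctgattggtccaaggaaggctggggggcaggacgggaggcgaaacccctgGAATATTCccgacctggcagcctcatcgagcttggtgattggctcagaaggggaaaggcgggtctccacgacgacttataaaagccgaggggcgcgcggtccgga
It spans chr6:31827488-31827737 on the plus strand, and the match starts 105 bases before the start. Of 27 heat shock promoters found, 10 (37.0%) hold GAANNTTC on either strand, against 4.66% of promoters of tested genes and 6.87% of all. The same letters preceded by TTCNN were in 6 (22.2%), against 0.318% and 0.487%.

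Most tested genes of ATF4 and the integrated stress response rose. Of 36 tested, 31 were higher than untreated (against 17.2% of all tested genes), 1 was lower (against 16.9%) and 4 did not pass. The median log2 fold change was 0.48. TNF-α alone gave 19 higher (against 14.1% of all tested genes) and 6 lower (against 12.5%) with a median of 0.12. SLC7A11 is also in this list. CHAC1, which degrades glutathione, was at 9.91, 10.2 and 9.53 CPM untreated, 14.9, 14.4 and 15.3 CPM with TNF-α and 47.8, 50.6 and 50.2 CPM with both agents (2.33 ± 0.08). Its MCL libraries were far above the others, and those with TNF-α were slightly above untreated. ATF4 itself, the central factor, was at 355, 349 and 362 CPM untreated, 402, 393 and 414 CPM with TNF-α and 566, 589 and 569 CPM with both agents. The factors ATF3 and DDIT3 (CHOP) rose by 1.804 ± 0.12 and 1.33 ± 0.13, and the mTORC1 brakes DDIT4 and SESN2 by 1.83 ± 0.11 and 1.11 ± 0.07. Part of each rise was present with TNF-α alone, at 0.59 ± 0.14, 0.45 ± 0.14, 0.76 ± 0.12 and 0.61 ± 0.07 in the same order. DDIT3 overlaps MARS and MBD6. Single members went other ways: GDF15, a stress cytokine, fell from 2.93, 2.33 and 4.17 to 1.24, 1.76 and 0.556 CPM, and the pseudokinase gene TRIB3 did not pass (-0.04 ± 0.06; adjusted p = 0.663). ASNS, the asparagine synthetase gene, was not tested, with 0, 0 and 2 counts untreated and 0, 3 and 3 with TNF-α plus MCL. TGATGNAA, a core of ATF4 sites, was in 4 of the 25 promoters found (16.0%), against 1.71% of promoters of tested genes and 3.67% of all.

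Genes of the endoplasmic reticulum unfolded protein response rose by small amounts. Of 27 tested, 18 were higher, 1 was lower and 8 did not pass, with a median of 0.22. For this list and the next ones, 17.2% of all tested genes were higher and 16.9% lower. With TNF-α alone these shares were 14.1% and 12.5%. The chaperone gene HSPA5 (BiP) rose from 602, 631 and 623 to 709, 743 and 719.5 CPM and HERPUD1, a degradation factor, from 45.7, 39.3 and 38.8 to 71.5, 78.3 and 70.0 CPM, against log2 fold changes of -0.16 ± 0.03 and 0.17 ± 0.06 with TNF-α alone. XBP1, a transcription factor of this response, was the member that fell (-0.26 ± 0.03). Proteasome subunit genes moved together and little, with 25 of 32 higher, none lower and a median of 0.16, against 2 of 32 higher with TNF-α alone. Autophagy genes had 13 of 21 higher, none lower (1 lower without MCL replicate 2) and a median of 0.26, against 6 higher and 1 lower with TNF-α alone. GABARAPL1 rose by 1.31 ± 0.21 and had -0.11 ± 0.25 with TNF-α alone. OPTN rose by 2.14 ± 0.06, less than with TNF-α alone (2.47 ± 0.06).

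The metal response stayed near the untreated level. Of 11 listed genes 6 were tested, with 1 higher, the metal-sensing factor MTF1 (0.29 ± 0.08), and 1 lower, the zinc importer SLC39A10 (-0.17 ± 0.07; adjusted p = 0.0432). The call of SLC39A10 was lost on leaving out any 1 of 5 libraries, all but untreated replicate 2, with adjusted p from 0.0544 to 0.291, and by DESeq2 (adjusted p = 0.0610). MT2A, a metal-binding metallothionein, was at 214, 191 and 181 CPM untreated and 191, 183 and 166 CPM with both agents, and MT1X at 6.24, 11.1 and 6.67 CPM untreated and 7.73, 8.88 and 6.18 CPM with both agents. Both overlapped between the groups and did not pass (adjusted p = 0.261 and 0.774), though MT2A passed when no filter was used (adjusted p = 0.0264).

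Since the series title names STAT3 and STAT5, their genes and targets were examined. Of 36 tested JAK-STAT and cytokine receptor genes, 17 were higher than untreated (against 17.2% of all tested genes) and 6 lower (against 16.9%). The other 13 did not pass, and the median was 0.11. STAT5A was at 299.8, 335 and 307 CPM untreated, 534, 521 and 515 CPM with TNF-α and 335, 344 and 359 CPM with both agents. The MCL libraries were just above or level with the highest untreated library and well below all TNF-α libraries (0.14 ± 0.04 against untreated). STAT5B fell from 119, 130.2 and 123 to 83.9, 81.9 and 84.3 CPM (-0.57 ± 0.04), and its libraries with TNF-α alone, at 119, 123 and 121 CPM, overlapped the untreated ones. STAT3 fell slightly (-0.17 ± 0.03), as it did with TNF-α alone (-0.12 ± 0.03). RNA levels say nothing of the phosphorylation of these proteins.

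Listed STAT3 and STAT5 targets went both ways, with 9 of 34 higher, 14 lower, 11 not passing and a median of -0.08, where TNF-α alone gave 14 higher and 9 lower. Of all tested genes, 17.2% were higher and 16.9% lower with both agents, and 14.1% and 12.5% with TNF-α alone. BCL6 and IL2RA passed the filter only through other groups, and without them 8 of 32 were higher. Members of either direction can also respond to other pathways, and the part of STAT3 or STAT5 in their changes was not tested. PIM1, a survival kinase, rose from 19.6, 22.1 and 22.6 to 54.6, 55.8 and 54.7 CPM, above its level of 40.5, 42.9 and 43.4 CPM with TNF-α. BCL2L1, the gene of the survival protein BCL-XL, was at 96.9, 98.7 and 100.5 CPM untreated, 96.1, 96.6 and 104 CPM with TNF-α and 59.6, 64.2 and 62.9 CPM with both agents (-0.67 ± 0.05). Here the MCL libraries alone were low. CISH, a feedback inhibitor induced by STAT5, fell from 31.2, 29.4 and 29.8 to 16.0, 22.4 and 18.7 CPM, with 24.0, 20.8 and 23.8 CPM under TNF-α alone. MYC was at 456, 469.9 and 468 CPM untreated, 329.9, 323 and 327 CPM with TNF-α and 306, 329 and 306 CPM with both agents, lower in both treated groups (-0.57 ± 0.04). The cyclin gene CCND1 went from 106, 108 and 105 CPM to 172, 178 and 175 CPM with TNF-α and was 105, 108 and 104 CPM with MCL, overlapping untreated (log2 fold change -0.01 ± 0.04, 95% interval from -0.09 to 0.07; adjusted p = 0.902). SOCS3, another feedback inhibitor, was lower (-0.63 ± 0.25; adjusted p = 0.0442) with overlapping libraries. That call was lost without untreated replicate 1, untreated replicate 2, MCL replicate 1 or MCL replicate 3 (adjusted p 0.0973, 0.173, 0.282 and 0.0632).

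Genes of cell death regulation were mixed, with 11 of 33 higher, 6 lower and 16 not passing, where 17.2% of all tested genes were higher and 16.9% lower. Among BH3-only genes, which promote death, PMAIP1 (NOXA) rose from 34.7, 37.4 and 33.0 to 104, 95.4 and 97.2 CPM, BMF from 8.23, 7.0 and 8.75 to 33.3, 36.9 and 37.6 CPM and BBC3 (PUMA) by 0.79 ± 0.08. PMAIP1 was at 45.6, 45.9 and 44.7 CPM with TNF-α alone, so its rise lay mostly in the libraries with MCL, while BMF was at 45.4, 41.8 and 42.2 CPM and BBC3 at 28.7, 30.3 and 29.9 CPM. Against these, BCL2 fell by 0.47 on the log2 scale, and MCL1, a survival gene unrelated to the drug's abbreviation, did not pass (-0.07 ± 0.04). Of 22 tested p53 targets 5 were higher and 6 lower, with a median of -0.03, not far from the shares of all tested genes, and CDKN1A, the p21 gene, fell by 0.30.

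Genes of MYC and ribosome biogenesis leaned lower. None of 48 was higher (1 without untreated replicate 2), 35 were lower and 13 did not pass, against 16.9% of all tested genes called lower, with a median of -0.17. TNF-α alone gave 29 lower of the 48 (against 12.5% of all tested genes) and none higher (against 14.1%). RRP1B fell from 228, 224 and 233 to 144, 148 and 150.3 CPM, RRS1 from 93.2, 91.4 and 94.6 to 61.3, 61.5 and 63.0 CPM and WDR43 from 156, 153 and 159.6 to 123, 117 and 125 CPM, against log2 fold changes with TNF-α alone of -0.27 ± 0.04, -0.38 ± 0.05 and -0.29 ± 0.04. All 3 are ribosome assembly factors, and their untreated and MCL libraries did not overlap. Replication and mitosis genes had 16 of 41 lower (against 16.9% of all tested genes) and 3 higher (against 17.2%), with a median of -0.07. TNF-α alone gave 11 lower (against 12.5% of all tested genes) and 1 higher (against 14.1%), with a median of -0.06. Among the lower with both agents were TOP2A (-0.35 ± 0.03), AURKA (-0.35 ± 0.04) and CCNA2 (-0.34 ± 0.04). With TNF-α alone these had -0.13 ± 0.03, -0.08 ± 0.04 and -0.17 ± 0.04.

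The genes furthest below untreated were led by HES1, a target of Notch signalling, at 11.1, 9.56 and 10.2 CPM untreated, 4.86, 4.44 and 6.27 CPM with TNF-α and 1.65, 1.502 and 1.30 CPM with both agents (-2.78 ± 0.20). FAT4, a protocadherin, was at 15.8, 13.3 and 12.1 CPM untreated, 5.13, 4.50 and 4.41 CPM with TNF-α and 2.24, 2.74 and 2.22 CPM with both agents, and the endothelial matrix gene MMRN2 at 19.4, 18.5 and 17.3 CPM untreated, 11.04, 9.97 and 11.9 CPM with TNF-α and 4.01, 4.51 and 4.39 CPM with both agents. In each, libraries with TNF-α alone lay between the other groups. The naming rule also gave ELFN2, RTN4R, FAM124B, FHOD3, NFE2, ADRA2A, JCAD, GIMAP6 and TNS1, with log2 fold changes from -2.38 ± 0.15 to -1.61 ± 0.07. Genes that TNF-α alone left within 0.25 of 0 and that were lowest with MCL were CDKN1C, a cell cycle inhibitor, the perforin gene PRF1, RHOH, SH2D3C and ACKR2, with log2 fold changes from -1.27 ± 0.15 to -1.06 ± 0.14. PRF1, for one, was at 12.3, 12.9 and 11.97 CPM untreated, 11.1, 11.8 and 12.05 CPM with TNF-α and 5.25, 5.03 and 5.31 CPM with both agents. By the same rule the highest with MCL were TRIM16L, MSC, NQO1, GCLM and DNAJB4, with log2 fold changes from 2.24 ± 0.07 to 3.91 ± 0.22. MSC was at 2.68, 2.06 and 1.73 CPM untreated, 1.97, 2.46 and 2.42 CPM with TNF-α and 24.5, 25.9 and 27.7 CPM with both agents. It overlaps MSC-AS1.

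Blood lineage genes were among the lower ones. NFE2, a transcription factor of red cells and megakaryocytes, was at 65.2, 70.8 and 62.9 CPM untreated, 34.6, 36.5 and 35.1 CPM with TNF-α and 20.1, 18.5 and 20.1 CPM with TNF-α plus MCL (-1.76 ± 0.07). GATA2 was at 486, 482 and 486 CPM untreated, 553, 553 and 547 CPM with TNF-α and 344, 359 and 354 CPM with both agents, lowest with MCL although TNF-α alone raised it, and TAL1 and GFI1B fell by log2 fold changes of -0.46 ± 0.03 and -0.70 ± 0.04. Of 16 tested erythroid and megakaryocyte markers 8 were lower (against 16.9% of all tested genes), 1 (GP1BA) was higher (against 17.2%) and 7 did not pass. The sum over all 26 listed markers ran from 2229 to 2260.3 CPM untreated and from 1796 to 1832 CPM with both agents. With TNF-α alone it ran from 2270 to 2307 CPM. In bulk RNA, fewer cells of a type and less RNA per cell cannot be told apart.

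Summed markers of other cell types were as follows, where 16.9% of all tested genes were lower with both agents. Lymphocyte markers (17 listed) summed to 396 to 406 CPM untreated and 241 to 247 CPM with both agents. With TNF-α alone they summed to 304 to 312 CPM, already below untreated. With both agents 5 of 12 tested were lower, IGHM (-0.95 ± 0.04) and LCK (-0.89 ± 0.09) among them, and CD8B and MS4A1 were at 0. IGHM alone went from 269, 274 and 269 to 141, 143 and 136 CPM, most of the difference between untreated and both agents. Summed monocyte and granulocyte markers (17 listed) were 417 to 423 CPM and 327 to 343 CPM, with 1 of 10 lower, CSF1R (-0.65 ± 0.04), a list median of -0.07 and ELANE at 0. CSF1R alone went from 231, 239 and 235 to 152, 146 and 152 CPM, about the whole difference of that sum. With TNF-α alone the sum was higher than untreated, at 458 to 470 CPM. Fibroblast and endothelial markers (13 listed) summed to 425 to 432 CPM and 310.1 to 317 CPM, with 5 of 6 lower (3 without untreated replicate 3) and LUM at 0. With TNF-α alone they summed to 359 to 372 CPM, already below untreated. CDH5 alone went from 256, 263 and 253 to 169, 162 and 169 CPM, most of the difference between untreated and both agents. Transcripts of the mitochondrial chromosome made up 5.23% ± 0.115 of counts untreated, 5.12% ± 0.151 with TNF-α and 4.55% ± 0.217 with TNF-α plus MCL (SD, n = 3), and 11 of the 15 genes were lower. The part of any of these in the other results was not tested.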

How the data were processed

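The deposited table holds whole-number read counts per gene for 15 libraries, unnormalized. The submitters' processing notes name HISAT2 2.0.5, featureCounts 1.5.0-p3, DESeq2 1.16.1, hg38 and mm10, without roles. How strand and multi-mapping reads were treated is not given in the sources used here. Columns named Control were taken as the untreated samples.

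The main test was edgeR 4.0.16 under R 4.3.3 (TMM scaling, filterByExpr with a minimum count of 10, robust quasi-likelihood fit). All 15 libraries in 5 groups entered 1 model with 10 residual degrees of freedom, and p-values were Benjamini-Hochberg adjusted over 16146 genes, with a threshold of 0.05. The filter removed 42589 genes. Values after ± are standard errors of log2 fold changes or of shares of the TNF-α rise, unless SD is written. Those of log2 fold changes were derived from the F statistic of the test. For genes with few untreated counts, such as HMOX1, MARCKS and TNFSF18, they can be smaller than the counting error. Levels are TMM-scaled CPM, given per library in replicate order 1 to 3. Counting intervals are 95% and cover counting error only. Totals of 15476399 to 18035604 counts limit the precision of low genes.

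Members of the comparison and the gene lists were chosen with earlier results of these data known. Genes were named by this rule: the 12 highest and 12 lowest protein-coding genes with non-overlapping libraries and at least 5 CPM, from each list up to 4 passing members of smallest p, a panel of pathway genes, and the 5 highest and 5 lowest genes whose change with TNF-α was within 0.25 of 0. A few list members are counted but not reported here by name. Other list members were named as examples after their values were seen.

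The fit was tested on simulated counts with known changes. Alternatives were DESeq2 1.42.0 scaling and test, library totals, no filter, a filter of 1 CPM, only the compared libraries, a replicate block, and leaving out each library. Promoters and motifs came from RefSeq GRCh38.p14.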

Additional observations from a re-analysis of the deposited data

How the results depend on the processing

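No called log2 fold change of a named gene changed sign. List medians close to 0 did, those of the p53 targets and cell death regulators without untreated replicate 2 and that of the glycolysis genes without MCL replicate 2. The balance of calls also turned. By DESeq2, genes higher and lower with TNF-α plus MCL went from 2771 and 2731 to 2474 and 2539, and with TNF-α alone from 2275 and 2017 to 1946 and 2056. With library totals, the share of calls that were higher went from 53.01% to 42.4% with TNF-α alone and from 41.8% to 53.7% for MCL against TNF-α. Across alternatives, the number of genes higher with TNF-α plus MCL than untreated ran from 2416 to 2801 and of genes lower from 2313 to 2804. The replicate numbers do not pair the samples: the correlations of same-numbered untreated and MCL libraries were -0.02, 0.01 and -0.02. With the replicate block, 2801 genes were higher and 2751 lower, 5466 of the 5552 calls shared with the 5502 without it.

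Lower members of the ATF4 list numbered 2 instead of 1 with DESeq2 size factors, with the 1 CPM filter and with only the compared libraries. Lower members of the metal response list numbered 0 instead of 1 by DESeq2, and from 0 to 1 on leaving out single libraries. On leaving out single libraries, higher MYC and ribosome genes numbered 0 to 1, lower autophagy genes 0 to 1, lower fibroblast and endothelial markers 3 to 5 and lower glycolysis genes 5 to 8. The cause was not tested, but each such fit has fewer samples. Among named genes, SLC39A10, SOCS3 and TEK lost their call between TNF-α plus MCL and untreated in at least 1 alternative, and MT2A gained one with no filter. Between MCL and TNF-α alone 14 named genes lost a call and 4 gained one, and between TNF-α alone and untreated 11 lost and 7 gained one. SOCS3 also missed the threshold by DESeq2 (adjusted p = 0.0650) and with no filter (adjusted p = 0.0709).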

Other observations

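Immediate-early and ERK feedback genes went both ways. Of 38 tested, 13 were higher with TNF-α plus MCL than untreated (against 17.2% of all tested genes), 14 were lower (against 16.9%) and 11 did not pass. The median log2 fold change was -0.13, where TNF-α alone gave 16 higher (against 14.1% of all tested genes) and 10 lower (against 12.5%). IER3 and PHLDA1 passed the filter only through other groups, and without them 12 of 36 were higher. KLF4, a transcription factor of differentiation, rose by 1.00 ± 0.30 with both agents and had -0.03 ± 0.34 with TNF-α alone. The phosphatase gene DUSP4 rose from 44.2, 38.9 and 38.9 to 157, 153 and 166 CPM, and its libraries with TNF-α alone were at 129.9, 129 and 136 CPM. EGR1 and SPRY1, both induced by ERK signalling, fell by log2 fold changes of -1.11 ± 0.22 and -1.67 ± 0.25. JUN, a subunit of AP-1, fell with both agents (log2 fold change -0.54 ± 0.10, against -0.01 ± 0.10 with TNF-α alone), while its relative JUNB rose by 0.98 ± 0.05.

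Metabolic lists moved little. Of 27 tested genes of cholesterol and fatty acid synthesis, 11 were higher, 2 were lower and 14 did not pass, with a median of 0.07, the sterol enzymes MVD (0.38 ± 0.04) and HMGCS1 (0.33 ± 0.03) among the higher. Of 29 glycolysis and hypoxia genes, 5 were higher and 8 were lower (5 without MCL replicate 1), with a median of 0.02, where 17.2% of all tested genes were higher and 16.9% lower. The glucose transporter gene SLC2A3 was at 87.3, 76.3 and 78.3 CPM untreated, 61.7, 59.8 and 62.4 CPM with TNF-α and 30.6, 35.6 and 33.5 CPM with both agents. EGLN3, an oxygen-sensing hydroxylase, was highest with MCL, at 1.68, 2.39 and 1.61 CPM untreated, 1.77, 1.14 and 0.870 CPM with TNF-α and 4.13, 4.31 and 3.28 CPM with both agents.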
